A study of Mus musculus with 9 samples.

Results

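Cdkn1c, Phlda2, Grb10, Gnas and Meg3 are imprinted genes, expressed mainly from the chromosome inherited from the mother in at least some tissues. They were examined at every probe set that the platform annotation assigns to 1 of these 5 symbols alone, which gave 21 of the 45101 probe sets on the array, for 5 of the 18193 genes named by a probe set of their own. H19 and Igf2r, also maternally expressed, were not among the members. Renal vesicles, the first epithelial stage of the nephron, had been cut by laser from mouse kidneys at E12.5 (embryonic day), from wild-type animals (5 arrays) or from animals carrying a mutation of Lim1 (4 arrays), a LIM homeodomain factor gene now named Lhx1. Each sample pooled roughly 30 to 50 vesicles and is described as biologically independent. The sources used here give no strain, sex or litter, and not which stretch of Lim1 was altered. Each array measured RNA amplified over 2 rounds, and it does not distinguish the maternal from the paternal copy.

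Imprinted genes carry a DNA methylation mark set in the egg or the sperm, and the mark decides which parental copy is read. Many maternally expressed members restrain fetal growth. Cdkn1c encodes p57Kip2, an inhibitor of cyclin-dependent kinases that halts the cell cycle and is a known marker of podocytes. Phlda2, its neighbour in the Kcnq1 imprinted region, encodes a small pleckstrin homology protein that limits growth of the placenta. Grb10 encodes an adaptor that binds the insulin and IGF receptors and dampens their signal. The Gnas locus gives several transcripts from separate promoters, among them the maternally expressed Nesp, the paternally expressed XL form, and Gs alpha, the G protein subunit that activates adenylyl cyclase and is read from both copies in most tissues. Meg3 is a long noncoding RNA of the Dlk1-Dio3 imprinted region, known from mesenchyme and neural tissue in the embryo.

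Promoter sequence is shown for the genes whose signals are described below, since several of them have more than 1 transcription start and their probe sets gave very different signals. RefSeq windows of GRCm38.p6, from 250 bases before to 50 bases after a start, matched 4 of the 5 genes, with 2 windows for Grb10, 4 for Gnas, 2 for Meg3 and 1 for Phlda2. The 150 bases before the start are printed for 5 of these 9 windows, 5′ to 3′ on the strand of the gene. Capitals mark matches on either strand to TGACGTCA (the cAMP response element), TATAAA (the TATA box), GGGCGG (the GC box) or CCAAT (the CCAAT box).
Meg3, first start, chr12:109540846-109540995, plus strand: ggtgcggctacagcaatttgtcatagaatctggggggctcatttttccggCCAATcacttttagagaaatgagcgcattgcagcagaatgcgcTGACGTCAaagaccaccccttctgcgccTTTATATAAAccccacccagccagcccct
Gnas, first start, chr2:174284170-174284319, plus strand: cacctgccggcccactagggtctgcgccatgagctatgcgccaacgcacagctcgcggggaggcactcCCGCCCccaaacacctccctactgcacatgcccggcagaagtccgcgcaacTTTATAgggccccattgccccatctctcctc
Gnas, last start, chr2:174329856-174330005, plus strand: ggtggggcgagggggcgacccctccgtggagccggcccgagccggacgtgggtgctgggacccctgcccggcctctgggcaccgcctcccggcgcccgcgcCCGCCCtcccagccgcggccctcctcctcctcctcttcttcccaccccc
Grb10, first start, chr11:12037421-12037570, minus strand: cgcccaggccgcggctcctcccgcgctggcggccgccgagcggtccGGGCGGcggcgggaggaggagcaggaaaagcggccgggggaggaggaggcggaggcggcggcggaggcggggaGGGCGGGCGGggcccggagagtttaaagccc
Phlda2, chr7:143502525-143502674, minus strand: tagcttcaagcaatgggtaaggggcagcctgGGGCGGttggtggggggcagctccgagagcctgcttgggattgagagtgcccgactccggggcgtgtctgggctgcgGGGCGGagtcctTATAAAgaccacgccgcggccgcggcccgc

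The first Meg3 window was the only window of these genes with TGACGTCA, a sequence found in 1.79% of the 32851 promoter windows in the table. It also held 2 overlapping TATAAA matches and a CCAAT match, which occurred in 13.6% and 37.4% of all windows. Phlda2 and the first Gnas start each had a TATAAA match, whereas the last Gnas start and the first Grb10 start had only GGGCGG matches, found in 35.7% of all windows. CG pairs numbered 45 in the first Grb10 window, 40 in the last Gnas window, 26 in that of Phlda2 and 13 in the first Meg3 window, against a median of 7 over all windows. A match describes these letters only, and no binding was measured.

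Array medians of the deposited signal ran from 144 to 195. Wild-type arrays 3 and 1 correlated least with the others, with mean r of 0.851 and 0.862 across probe sets against 0.875 to 0.899 for the remaining arrays. Among markers of the vesicle, 10 of 11 were measured and all 10 lay above the filter on dim probe sets, with summed signals of 103975 to 270050 in the wild type and 119528 to 153232 in the mutants. The Lhx1 probe set that lost its signal read between 2327 and 17587 in the wild type and between 6.88 and 10.5 in the mutants (limma adjusted p = 0.00329). The other Lhx1 probe set read between 1696 and 18555 in the wild type and between 4108 and 4951 in the mutants (adjusted p = 0.833).

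No member gene changed between wild-type and Lim1 mutant vesicles by the test used. Differences are mutant minus wild type on the log2 scale after normalisation, and a probe set was tested where its mean was at or above the 40th percentile of all. Of the 21 probe sets, 16 passed the filter on dim probe sets and were tested, and none of the 16 passed an adjusted p of 0.05 in limma, where 9 of 27022 probe sets did (0.0333%). An unadjusted p under 0.05 was reached by 1 of the 16, against 6.67% of all probe sets tested. Groups overlapped at all 16, while they were apart at 2.25% of all probe sets tested. Differences lay above 0 at 4 of the 16 and below 0 at 12, with a median of -0.34 on the log2 scale against 0.03 over all probe sets. Since 9 of the 16 belong to Meg3, they share a gene and are not independent.

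**Figure D1:**
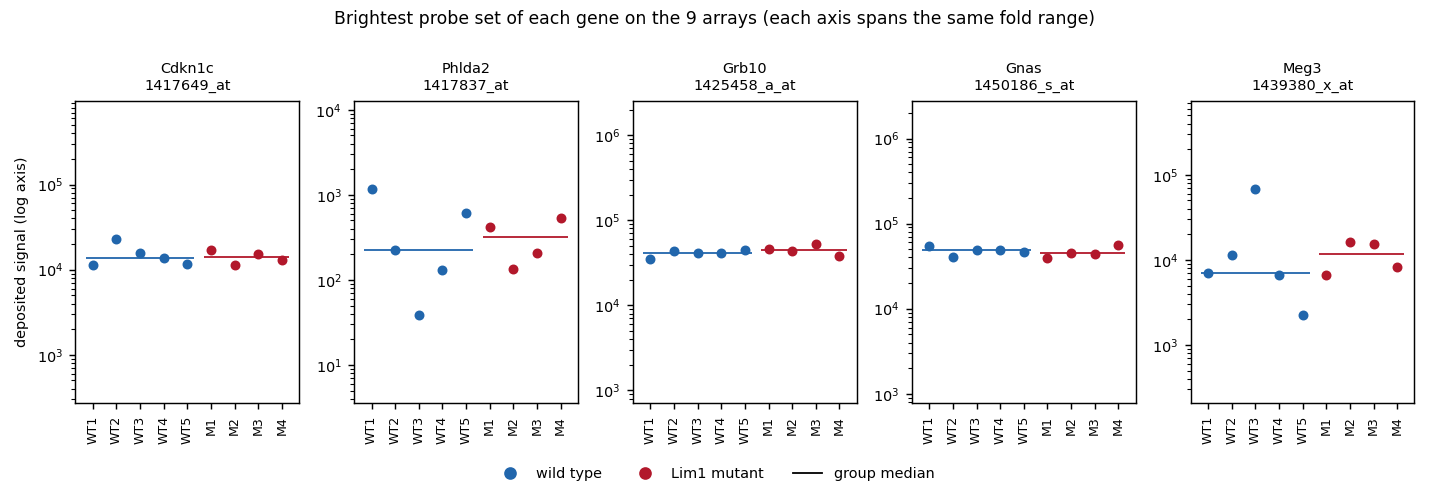
Deposited signal (log axis) at the brightest probe set of each gene on the 9 arrays, wild type in blue and Lim1 mutant in red, with the group median as a line. Cdkn1c, Grb10 and Gnas varied by 1.43 to 2.02 times from the lowest to the highest array, Phlda2 and Meg3 by about 30.6 and 29.9 times.

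The growth inhibitor Cdkn1c was bright in vesicles of both genotypes and its level was close between them. Its single probe set read 11443, 23056, 15603, 13701 and 11692 on wild-type arrays 1 to 5. On mutant arrays 1 to 4 it read 16935, 11409, 15371 and 12870, all but the lowest within the wild-type range, and wild-type array 2 was the highest of the 9. Means were 15099 ± 4756 (SD, n = 5) and 14147 ± 2476 (n = 4). The log2 difference, mutant minus wild type, was -0.06 ± 0.26 (SE; limma adjusted p = 0.982), with a 95% interval from 0.643 to 1.43 as a fold. Without wild-type array 2 the difference was 0.14. The 5 measured podocyte markers all had differences above 0, none past the threshold, and Synpo lay below the filter. Their summed signal was 7730 to 18326 in the wild type and 16110 to 24814 in the mutants, ranges that overlapped. Without Foxc2, the brightest, the sums were 4958 to 10149 and 7695 to 11415. Over the 9 arrays Cdkn1c correlated with the sum of all 5 at r = 0.25. Its r was larger in size with the sums of ureteric bud (0.70, Spearman rho 0.28), erythroid (-0.65), vesicle (-0.51) and cap mesenchyme markers (0.34).

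Phlda2, which neighbours Cdkn1c on the other side of Slc22a18 in the RefSeq gene order, was dim and varied widely within each group. Wild-type arrays 1 to 5 gave 1184, 225, 38.6, 129 and 609, and mutant arrays 1 to 4 gave 422, 135, 209 and 528. Every mutant value lay inside the wild-type range, whose highest and lowest arrays were 1 and 3. The log2 difference was -0.02 ± 0.78 (adjusted p = 0.997), and its 95% interval ran from 0.304 to 3.21 as a fold, so a change of 3 times in either direction lay within it. Leaving out wild-type array 1 or 3 gave 0.51 or -0.50. Its residual SD of 1.30 log2 units was larger than that of 83.5% of the probe sets tested.

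Grb10 gave 3 different pictures at its 3 probe sets. The brightest, 1425458_a_at, was among the steadiest on the array, with 34804, 43464, 41519, 40955 and 44833 on wild-type arrays 1 to 5. Mutant arrays 1 to 4 read 46401, 43110, 51911 and 37464, with 2 of them above the wild-type maximum. The difference there was 0.10 ± 0.19 (adjusted p = 0.952), with a 95% interval from 0.805 to 1.42 as a fold. Its residual SD of 0.31 was larger than that of only 6.55% of the probe sets tested.

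The second Grb10 probe set, 1430164_a_at, read 1041, 1007, 748, 3000 and 1199 on wild-type arrays 1 to 5. Mutant arrays 2 and 3 read 156 and 87.5, below every wild-type array, whereas mutant arrays 1 and 4, at 1096 and 1223, lay within the wild-type range. The difference of -1.61 ± 0.73 was the one that reached an unadjusted p under 0.05 (limma p = 0.0475), with an adjusted p = 0.748 and an exact permutation p = 0.103. Mutant arrays 2 and 3 set its size, and without mutant array 3 it was -1.06.

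The third Grb10 probe set, 1425457_a_at, lay below the filter. It was designed from the same database sequence as the brightest probe set. Its signals were 30.7, 68.6, 25.9, 14.6 and 59.5 on wild-type arrays 1 to 5 and 130, 108, 108 and 850 on mutant arrays 1 to 4. All mutant arrays lay above all wild-type arrays (log2 difference 1.51, exact permutation p = 0.00794, the smallest these group sizes allow), as groups did not overlap at 1.51% of the probe sets below the filter. It was the single such case among the 5 members below the filter, and with the filter removed its limma adjusted p was 0.816. Mutant array 4 carried much of the size, and without it the difference was 0.90. The positions of the probes along the Grb10 transcript were not analysed here, so whether the 3 probe sets read the same transcripts was not tested.

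**Figure D2:**
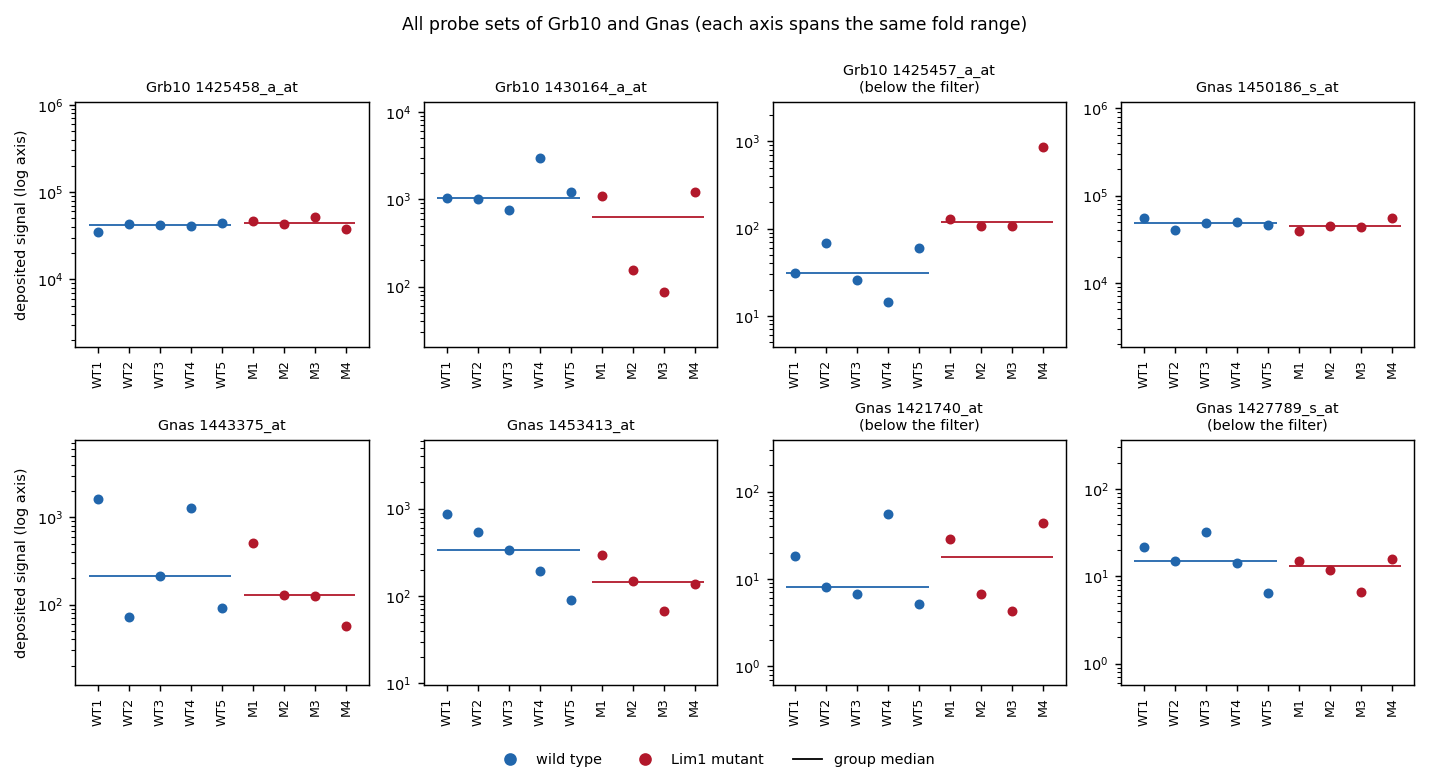
Deposited signal (log axis) at the 3 Grb10 and 5 Gnas probe sets on each array, wild type in blue, Lim1 mutant in red, group median as a line; every axis spans the same fold range. The brightest probe set of each gene was level across arrays, and at Grb10 1425457_a_at, below the filter, the 4 mutant arrays lay above the 5 wild-type arrays.

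Gnas was bright and nearly constant at 1450186_s_at, a probe set whose suffix marks probes shared by several transcripts. Wild-type arrays 1 to 5 read 54878, 40499, 48978, 49538 and 46425, and mutant arrays 1 to 4 read 38948, 45398, 43781 and 55739. The groups overlapped, and mutant arrays held both the lowest and the highest value. Means of 48064 ± 5228 (SD, n = 5) and 45967 ± 7068 (n = 4) gave a log2 difference of -0.07 ± 0.12 (adjusted p = 0.949). The 95% interval, 0.792 to 1.15 as a fold, was the narrowest among the 16 tested members, and the residual SD of 0.15 was larger than that of 0.766% of the probe sets tested.

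The other Gnas probe sets were dim. At 1453413_at the signals on wild-type arrays 1 to 5 were 870, 536, 334, 195 and 89.5, against 295, 149, 66.8 and 138 on mutant arrays 1 to 4 (difference -1.05 ± 0.59, adjusted p = 0.8). At 1443375_at wild-type arrays 1 and 4 read 1615 and 1290 and mutant array 1 read 506, whereas the remaining 6 arrays read 56.8 to 213 (-1.06 ± 0.86, adjusted p = 0.868). Both groups spread over more than the difference at these probe sets. The remaining 2, 1421740_at and 1427789_s_at, lay below the filter with signals of 4.24 to 55.6. No file ties a Gnas probe set to the starts printed above or to Nesp, XL or Gs alpha, so these values are not divided among those transcripts.

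**Figure D3:**
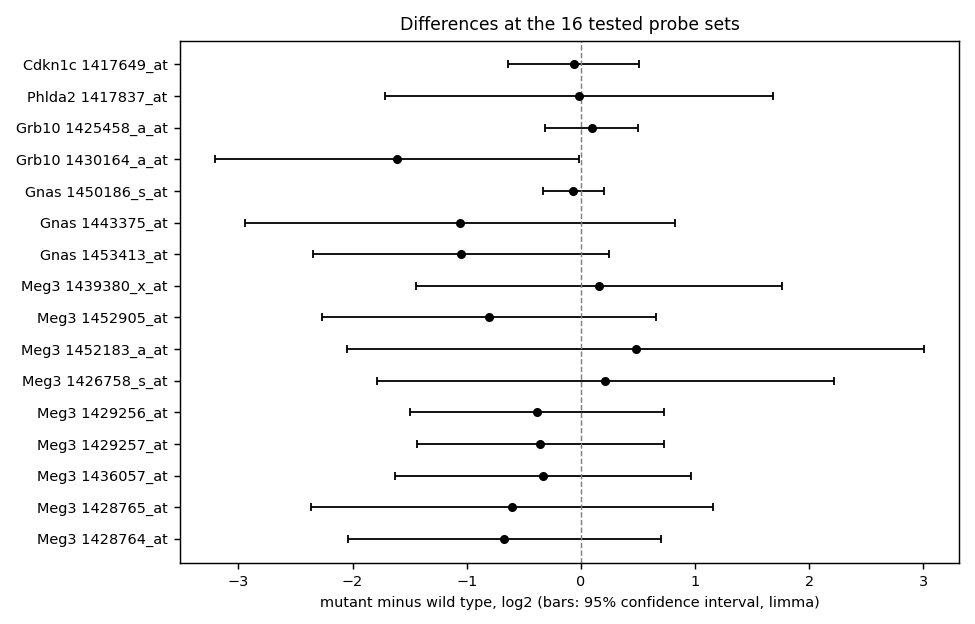
Mutant minus wild-type difference (log2) at the 16 tested probe sets, with 95% confidence intervals from limma. The intervals at the brightest Cdkn1c, Grb10 and Gnas probe sets are short and include 0, those of Phlda2 and Meg3 are long, and that of Grb10 1430164_a_at, whose adjusted p was 0.748, ends at -0.02.

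Meg3 varied widely, as Phlda2 did, and its spread lay mostly among the wild-type arrays. At its brightest probe set, 1439380_x_at, wild-type arrays 1 to 5 read 6990.1, 11479, 68099, 6734 and 2277. Mutant arrays 1 to 4 read 6566, 16289, 15454 and 8151. Wild-type array 3 stood above all others and wild-type array 5 below all others, with the 4 mutants between them. The difference was 0.16 ± 0.73 (adjusted p = 0.984), with a 95% interval from 0.368 to 3.40 as a fold. The SD over the wild-type arrays was 1.70 log2 units and that over the mutants 0.63.

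The other Meg3 probe sets repeated the high value on wild-type array 3. At 1452183_a_at that array read 31782, against 108 to 3140 on the other wild-type arrays and 1470 to 3660 on the mutants. At 1452905_at it read 30338, against 1581 to 6488 and 2194 to 4243. Of the 11 Meg3 probe sets, 10 were highest on wild-type array 3. The exception, 1452906_at, lay below the filter and read 991 on wild-type array 1 and 16.1 to 47.1 elsewhere. Pairs of the 11 probe sets correlated across the 9 arrays with a median r of 0.63, and of 0.08 without wild-type array 3. Among the 4 brightest the median r was 0.83, and 0.57 without that array.

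Differences between genotypes at the 9 tested Meg3 probe sets ran from -0.81 to 0.48 and were above 0 at 3 and below 0 at 6, none past the threshold. The 3 above 0 were among the 4 brightest, and the fourth, 1452905_at, had the lowest value (-0.81 ± 0.67, adjusted p = 0.869). Without wild-type array 3 the values at 1439380_x_at, 1452183_a_at and 1426758_s_at were 0.82, 1.50 and 1.02 (adjusted p = 0.74, 0.71 and 0.753) and that at 1452905_at was -0.21. Without wild-type array 5, the lowest at 1439380_x_at, all 4 of the brightest were below 0, at -0.34, -0.37, -0.25 and -1.23 in the same order. The sign also turned without mutant array 2 at 1439380_x_at (-0.03) and 1426758_s_at (-0.12). At 1426758_s_at it turned without wild-type array 1 as well (-0.22). The direction at the first 3 therefore depended on which array was left out, whereas 1452905_at stayed below 0. The suffix of 1439380_x_at marks probes that can bind other transcripts as well.

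**Figure D4:**
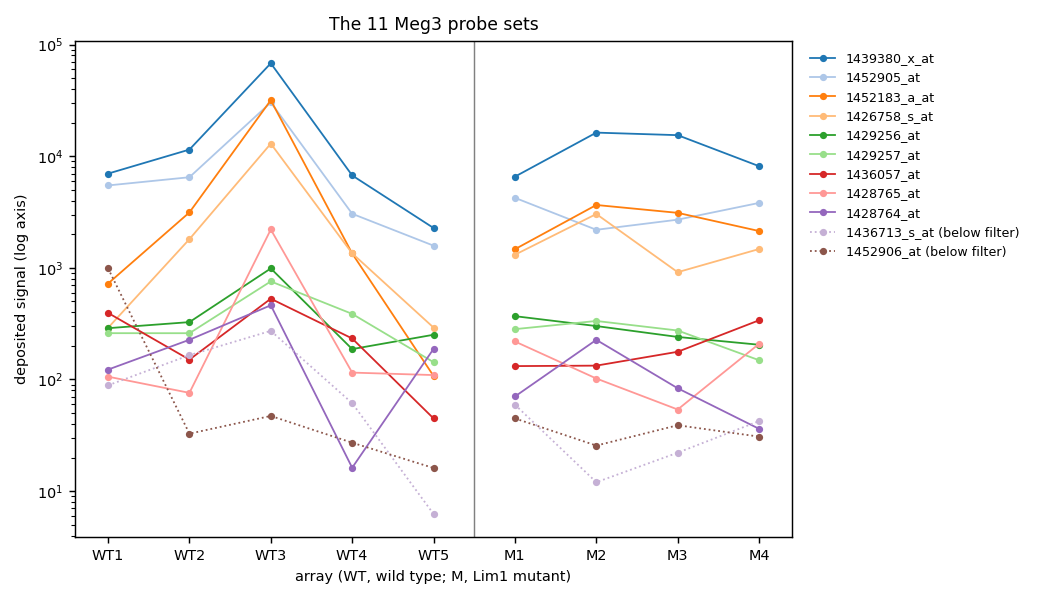
Deposited signal (log axis) of the 11 Meg3 probe sets on the 5 wild-type (WT) and 4 mutant (M) arrays; lines only join the points of a probe set, and dotted lines are probe sets below the filter. Wild-type array 3 was highest at 10 of the 11.

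The summed signal of stroma markers, genes of the mesenchyme between nephrons, was high on the arrays where Meg3 was high, though not every marker was. All 10 stroma markers were measured and above the filter, 4 with differences above 0 and 6 below, none past the threshold. Their summed signal was 150348 on wild-type array 3, against 18702 to 48847 on the other wild-type arrays and 15255 to 48950 on the mutants. Meg3 at 1439380_x_at correlated with the stroma sum at r = 0.90 over the 9 arrays and at 0.75 without wild-type array 3, on the log2 scale. The collagen genes Col3a1 and Col1a2 gave 81376 and 40123 of the sum on wild-type array 3. Of the 10 markers, 7 were highest on that array, whereas Meis1 was lowest there, at 2895, and Foxd1 and Tcf21, at 3733 and 2336, lay within the range of the other arrays. Without both collagens, a choice made after seeing the data, the sum was 28849 on wild-type array 3, 7883 to 19551 on the other wild-type arrays and 10473 to 23881 on the mutants, and r with Meg3 was 0.92 (0.93 without that array). The arrays with the next highest stroma sums, mutant arrays 2 and 3 and wild-type array 2, also had the next highest Meg3 signals. In RNA from captured tissue, more cells of a type and more RNA per cell cannot be told apart.

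The 7 macrophage markers, all above the filter, summed to 21796 on wild-type array 3, to 899 to 3181 on the other wild-type arrays and to 2870 to 5451 on the mutants, and r with Meg3 was 0.93 (0.83 without that array). Csf1r gave 16543 of the sum on wild-type array 3, and only 3 of the 7 markers were highest there. Adgre1 read 131 to 231 on the wild-type arrays, highest on array 3, and 279 to 544 on the mutants (limma adjusted p = 0.803). Its groups did not overlap, as at 2.25% of all probe sets tested. Without Csf1r the macrophage sum was 5253 on wild-type array 3 and 647 to 4016 on the others, with r = 0.84. The sum of the vesicle markers was lowest on wild-type array 3, at 103975, and correlated with Meg3 at r = -0.73. Of the cap mesenchyme, 6 of 7 markers were measured, with sums of 7664 to 21311 in the wild type and 8729 to 18669 in the mutants (r = 0.71, and 0.24 without Eya1, the brightest), and Cited1 lay below the filter. Wild-type array 3 also had the highest sums of the cap mesenchyme, endothelium, erythroid and neural lists, not only of stroma and macrophages. The endothelium sum stayed highest there without Cldn5, and the neural sum without Elavl4. Without Eya1 the cap mesenchyme sum was 4477 on wild-type array 3, below wild-type array 2 (6241) and mutant array 2 (14641). The erythroid sum stayed highest on wild-type array 3 without Hbb-y. Without Hbb-y and Hbb-bh1 it was 1271 on that array, below mutant array 4 (2076). The 4 measured neural markers, of which Tubb3 lay below the filter, summed to 2294 on wild-type array 3. Other wild-type arrays gave 685 to 1326 and the mutants 630 to 752. Their r with Meg3 was 0.63, and -0.08 without wild-type array 3. The sum of the 8 measured ureteric bud markers was highest on wild-type array 2, at 59493 (r with Meg3 0.49), and Gata3 and Hoxb7 lay below the filter. Calb1 gave 39640 of that sum, and 3 of the 8 markers were highest on wild-type array 3. Without Calb1 the sum was still highest on wild-type array 2 (r = 0.64). Without Calb1 and Krt8 it was 8596 on that array and 11605 on wild-type array 3, with r = 0.79. The part of these cell types in the Meg3 signal was not tested. Among the 45 combinations of 5 genes and 9 marker lists, Meg3 with the macrophage sum (0.93) had the r of largest size. Grb10 at its brightest probe set gave r = -0.90 with the sum of the 4 measured erythroid markers, close in size to Meg3 with stroma (0.90). The erythroid sums were 49759 to 155498 in the wild type and 33461 to 118931 in the mutants. Nearly all of that sum was Hbb-y, an embryonic globin, and without it r was -0.35. The endothelial sum was lower in the mutants, 3715 to 5548 against 13479 to 24530, with 9 of 9 differences below 0, Pecam1 and Tie1 below the filter and Cldn5 alone past the threshold. Without Cldn5, a claudin of tight junctions, the sums overlapped, at 3888 to 15285 in the wild type and 3106 to 4235 in the mutants.

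**Figure D5:**
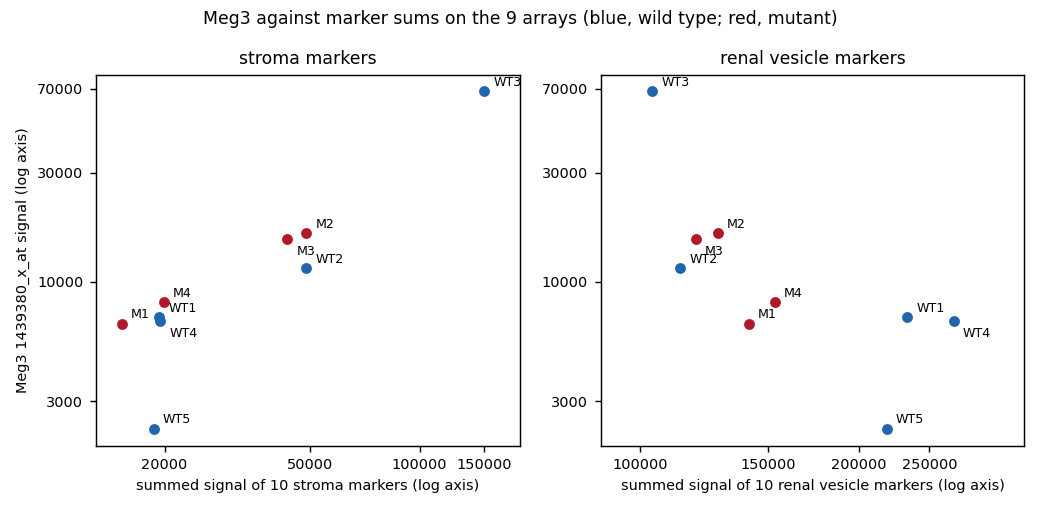
Meg3 signal at 1439380_x_at against the summed signal of 10 stroma markers (left) and of 10 renal vesicle markers (right) on the 9 arrays, all axes logarithmic, wild type in blue and mutant in red. Wild-type array 3 has the highest Meg3 and stroma signal, 68099 and 150348, and the lowest vesicle sum, 103975.

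The Dlk1-Dio3 region, in which Dlk1 and Rtl1 are the protein-coding neighbours of Meg3 in RefSeq, was compared at the 3 further genes with a probe set. Rian, another maternally expressed noncoding RNA of the region, read 1544 on wild-type array 3 and 203 to 491 on all other arrays (difference -0.50 ± 0.56, adjusted p = 0.911). Mirg, a noncoding RNA that hosts microRNAs, read 548 on that array, 36.0 to 289 on the other wild-type arrays and 207 to 471 on the mutants (0.52 ± 0.57, adjusted p = 0.907). Dlk1, the paternally expressed Notch-like protein, read 213, 973, 3067, 448 and 272 on wild-type arrays 1 to 5 and 1144, 3251, 2239 and 1016 on mutant arrays 1 to 4 (1.37 ± 0.71, adjusted p = 0.788). Correlations with Meg3 were 0.65 for Rian, 0.56 for Mirg and 0.79 for Dlk1 over the 9 arrays. Without wild-type array 3 they were -0.08, 0.30 and 0.78. Wild-type array 3 was the highest of the 9 for Rian and Mirg and the second highest for Dlk1, after mutant array 2.

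The 5 genes did not vary as a unit. At their brightest probe sets the 10 pairs had r between -0.75 (Phlda2 with Meg3) and 0.77 (Cdkn1c with Grb10). The genes most like each member were sought among the brightest probe sets of 13225 other genes by Pearson r over the 9 arrays, which is a description from few points. For Cdkn1c they were Pcdh20, a protocadherin (r = 0.88), Septin11 (0.87) and Gsta4, a glutathione transferase (0.87). For Phlda2 they were B3galnt2 (0.95), Gprasp2 (0.95) and Zfp975 (0.95), and for Grb10 Nrep (0.95), Nono (0.91) and Fer (0.91). Gnas was most like Rps4l (0.97), Cops2 (0.96) and Mindy3 (0.95). Meg3 was most like Anapc15 (0.97), Nbl1, a secreted BMP antagonist (0.96), and Wtip (0.95). With group means subtracted, these 15 values of r were 0.88 to 0.99.

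Other imprinted genes were counted at the brightest probe set per gene, where 7 of 13226 genes passed and the median difference was 0.07. Over all 13226 genes, 7467 lay above 0 and 5759 below, the share against which this and the following lists are read. The lists hold genes imprinted in at least some tissues, and which copy was read in the vesicles was not measured. Of 14 tested genes listed as expressed from the maternal copy, 7 were above 0 and 7 below, with a median of 0.03 and none past the threshold. They included Asb4, an ankyrin repeat protein, at 4175 ± 3295 and 1196 ± 728 (-1.65 ± 0.62, adjusted p = 0.715), and Cd81 and Tssc4 of the Kcnq1 region at 0.45 ± 0.23 and 0.50 ± 0.41 (adjusted p = 0.784 and 0.869). Of 15 tested genes listed as expressed from the paternal copy, 10 were above 0 and 5 below, with a median of 0.12 and 1 past the threshold. That gene was Igf2, the fetal growth factor, at 19783 to 30324 in the wild type and 45334 to 60752 in the mutants (1.16 ± 0.15, adjusted p = 0.0236). The Igf2 call did not hold when arrays were left out singly, except without wild-type array 3: it was lost in 8 of 9 such refits, with differences of 1.08 to 1.22 and adjusted p of 0.0527 to 0.128. It was also lost without wild-type arrays 1 and 3 (adjusted p = 0.0650), with median centring (0.378), with no quantile normalisation (0.120) and with no variance trend (0.485). It held with the pseudocount at the 10th percentile (0.0269) or the median (0.0387), with no filter (0.0411) and with array weights (0.0124). Differences in these refits ran from 1.05 to 1.23. The other Igf2 probe set lay below the filter, with overlapping groups and a difference of 0.21. Sgce, a sarcoglycan, had 0.95 ± 0.41 (adjusted p = 0.737).

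Genes that act with Cdkn1c in the first gap phase of the cell cycle showed no call among 18 tested, 11 above 0 and 7 below, with a median of 0.16. Cdkn1b, which encodes the related inhibitor p27Kip1, read 394 ± 104 and 678 ± 146 (0.65 ± 0.42, adjusted p = 0.826). Cdk2, a kinase that p57Kip2 inhibits, read 7634 ± 1809 and 4491 ± 1721 (-0.83 ± 0.35, adjusted p = 0.735), and Cdk6, a partner of D cyclins, 1704 ± 1259 and 461 ± 584 (-2.07 ± 0.84, adjusted p = 0.728). Ccne1, the cyclin of Cdk2, had 0.41 ± 0.18 (adjusted p = 0.746). After normalisation the groups did not overlap for Cdk2 or Ccne1, though the deposited signals of Ccne1 did, at 11796 to 15785 and 15634 to 26855. Groups were apart at 2.25% of all probe sets tested, and both genes were named here for their low p.

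Among 18 tested genes of insulin and IGF signalling, in which Grb10 acts, 9 were above 0 and 9 below, with a median of 0.08. Igf2, whose call was lost in most refits as described, was the single call. Insr, the insulin receptor to which Grb10 binds, had 0.56 ± 0.56 (adjusted p = 0.895) and Mtor, a kinase downstream, 0.33 ± 0.31 (adjusted p = 0.884). Grb14, a relative of Grb10, read 2295 ± 1267 and 1206 ± 561 (-0.87 ± 0.51, adjusted p = 0.803), and Pik3ca had -0.36 ± 0.37 (adjusted p = 0.898). Phlda1 and Phlda3, relatives of Phlda2, had 0.68 ± 0.49 and 0.35 ± 0.46 (adjusted p = 0.848 and 0.927).

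The cAMP pathway below Gs alpha had 16 of 25 tested genes above 0 and 9 below, with a median of 0.12 and no call. Crem, a transcription factor that binds the cAMP response element, had signals of 1939, 3675, 5875, 3288 and 4628 on wild-type arrays 1 to 5 and 1881, 437, 363 and 61.6 on mutant arrays 1 to 4. Its groups did not overlap, though mutant array 1 lay just below wild-type array 1 (-3.04 ± 0.71, adjusted p = 0.38). Akap12, which anchors protein kinase A, read 2785 to 7742 in the wild type and 7808 to 22206 in the mutants, also without overlap (1.43 ± 0.36, adjusted p = 0.485). Both genes were named for their low p, and groups were apart at 2.25% of all probe sets tested. Prkar1b, a regulatory subunit of that kinase, had 1.23 ± 0.67 (adjusted p = 0.795) and Adcy6, an adenylyl cyclase, -0.66 ± 0.39 (adjusted p = 0.808).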

How the data were processed

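The authors deposited linear intensities, 1 value for each probe set of each array, made with GCOS per the submitters' processing notes. Neither its algorithm and version nor a genome build is stated in the sources used here. All arrays had a mean of 1500 once the outer 2% of values at either end were dropped. A pseudocount of 42.4, equal to the 25th percentile over all arrays, was added before taking log2, which understates differences of dim probe sets, and quantile normalisation followed. The 64 control probe sets were left out. Of the 45037 others, the 27022 with a mean not under the 40th percentile entered the fit. Differences were fitted with limma 3.58.1 in R 4.3.3 (group as the only term, variance trend, two-sided) and adjusted by Benjamini-Hochberg over the 27022. Exact permutation tests, two-sided, ran over all splits of the 9 arrays on normalised log2 values. Signals in the text are as deposited. The fit was tested on simulated data.

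Probe sets were named from the platform annotation, where 34958 had 1 symbol, 932 several and 9211 none. In lists a gene was represented by its brightest probe set. Every member probe set was reported, and from each list the genes that passed and at most 2 per direction with the lowest p. The members and lists were chosen with earlier results of these data known. Whether samples shared a litter is not stated, so p-values measure the spread between these samples, and the number of arrays limits the precision.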

Additional observations from a re-analysis of the deposited data

Results flagged for a closer look

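Dixon's criterion at 95% was applied to the 42 sets of values (21 probe sets, each in 2 genotypes) and picked out 3 single arrays, where about 2.1 would be picked by chance (1 in 20). Mutant array 4 read 850 at Grb10 1425457_a_at, against 108 to 130 on the other mutants. Wild-type array 3 read 2208 at Meg3 1428765_at, against 75.9 to 115 on the other wild-type arrays. Wild-type array 1 read 991 at Meg3 1452906_at, against 16.1 to 47.1 on the other wild-type arrays. Of these probe sets, only Meg3 1428765_at was bright enough to be tested.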

How the results depend on the processing

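No tested member probe set passed the threshold in any of the 18 refits, where the smallest adjusted p was 0.633. Of 381 recomputed member differences, 342 kept their sign and 39 changed it, 29 at tested probe sets and 10 at 2 probe sets below the filter (Gnas 1421740_at and Meg3 1452906_at), where they moved by less than 1 SD. The cause of these sign changes was not tested. For Phlda2 the sign turned without quantile normalisation (0.0771), with the pseudocount at the 10th percentile (0.0649), without wild-type arrays 1 and 3 (0.0361) and with the replicate number as a block (0.27). Without wild-type arrays 1 and 3 it also turned for Grb10 1425458_a_at (-0.0665) and for Meg3 1429256_at (0.0915), 1429257_at (0.0412), 1436057_at (0.40) and 1428765_at (0.21). With the block it turned for Meg3 1439380_x_at (-0.34), 1452183_a_at (-0.37) and 1426758_s_at (-0.25). The mean of the tested probe sets gave -0.76 for Grb10 and -0.26 for Meg3. With each array left out in turn, values ran from -0.18 to 0.14 for Cdkn1c, -0.50 to 0.51 for Phlda2, -0.0408 to 0.21 for Grb10 1425458_a_at, -0.34 to 0.82 for Meg3 1439380_x_at, -0.37 to 1.50 for 1452183_a_at, -0.25 to 1.02 for 1426758_s_at and -0.89 to 0.18 for 1428765_at. The 9 calls over all probe sets became 3 to 8 with an array left out (8 without wild-type array 3, 7 without wild-type array 1, and 3 to 5 without any other). In limma, 0 passed without wild-type arrays 1 and 3 (2012 at an unadjusted p under 0.05) and 0 with the replicate block (1756), where Igf2 had an adjusted p of 0.563. Same-numbered arrays deviated together at r of only -0.11 to 0.05, so the numbers were not taken as pairs.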
